A study of Capsicum chinense and Capsicum frutescens with 8 samples.

Results

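miR160, miR167 and miR390 were followed through 8 small RNA libraries of pepper, 1 for every combination of 2 species with stem, flower, fruit or leaf. The families were taken by number: every entry of the 8 deposited sheets of conserved miRNAs named miR160, miR167 or miR390, by the whole number, was a member. This gave 46 entry names out of 2312 in the whole series, 13 for miR160, 23 for miR167 and 10 for miR390, and 3 families out of 1336. The plants were 1 genotype per species, Bhut jolokia for Capsicum chinense and Acc. 4 for C. frutescens, grown in a glass house until fruit maturity. No agent was applied, and all 8 groups share this cultivation. The submitters pooled RNA from 3 biological replicates into each library, so no group has a replicate and the spread between plants is not in the data. Leaves were fully expanded, flowers were buds of mixed size and age, and each fruit library pooled stages from 5 to 60 days after flower opening. No marker of a cell type was measured, since only small RNAs were read, and in whole organs fewer cells of a type and less RNA per cell cannot be told apart.

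The 3 families act on the auxin response of plants, and their roles are known mainly from Arabidopsis. Auxin response factors (ARFs) are the transcription factors that bind auxin-responsive promoters. miR160 guides cleavage of transcripts of repressing ARFs (ARF10, ARF16 and ARF17), and miR167 guides cleavage of transcripts of activating ARFs (ARF6 and ARF8), which are needed for flower maturation and fertility. miR390 acts indirectly: loaded into AGO7, it starts production of trans-acting small RNAs from TAS3 transcripts, which in turn target ARF2, ARF3 and ARF4. Neither ARF transcripts nor trans-acting small RNAs were measured here.

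The deposited sheets print 1 sequence for each entry and library. The shortest printed form of the most-read entry of each family is shown here, with the seed (bases 2 to 8, counted from the 5′ end) in capitals, because the seed separates the 3 families.
miR160 (ppt-miR160e): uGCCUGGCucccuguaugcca
miR167 (bna-miR167b): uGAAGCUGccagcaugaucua
miR390 (ppt-miR390b): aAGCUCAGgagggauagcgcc
No pair of these seeds is the same. Printed sequences that hold the bases of the family's seed, at any position, stood for 91.5% of the miR160 reads. For miR167 they stood for 88.7% of the reads and for miR390 for 93.4%. In most libraries ppt-miR160e was printed with extra bases at its 5′ end, so its seed bases did not stand at bases 2 to 8 there. Within each of miR160, miR167 and miR390 the second form of the 5p arm differed from the first near its 3′ end, outside the seed. In the next lines the capitals mark the bases that differ from the first form or run past it.
miR390 (gma-miR390b-5p): aagcucaggagggauagcAcc
miR167 (ath-miR167d): ugaagcugccagcaugaucuGG
miR160 (osa-miR160e-5p): ugccuggcucccuguaugccG
The substitution, counted from base 1 of the first form, is G19A in miR390 and A21G in both miR167 and miR160. The most-read entry of the opposite arm (3p, the strand that pairs with the 5p arm in the precursor hairpin) is shown for miR160 and for miR167, since its share is compared between libraries further on.
miR160 (gma-miR160a-3p): gcguaugaggagccaagcaua
miR167 (stu-miR167c-3p): ggucaugcucggacagccucacu

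Few entries carried the reads. The name ppt-miR160e, of the moss Physcomitrium patens, held 5300 of the 5833 miR160 reads over the 8 libraries, or 90.9%. The name bna-miR167b, of Brassica napus, held 1051 of 1429 miR167 reads (73.5%), and ppt-miR390b held 2610 of 3830 miR390 reads (68.1%). The other names were thin: 31 of the 46 entries had at most 10 reads in all libraries together, and 16 were listed in 1 library. The 46 names carry 22 species prefixes. Names of tomato or potato numbered 6 of the 46, with 142 reads in all, 5 of them for miR167 and none for miR160. A prefix is thus the label of a database sequence and says nothing of the plant sampled. No printed sequence stood under 2 member names in the same library.

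Printed lengths differed between the 3 families. Printed sequences of miR390 ran from 19 to 24 nt, those of miR160 and miR167 from 18 to 27 nt. Entries with a printed sequence of at most 24 nt held 100% of the miR390 reads and 96.6% of the miR160 reads, but 26.5% of the miR167 reads. Over all conserved entries this share ran from 1.10% in C. chinense stem to 15.1% in C. frutescens leaf. The sums hide exceptions: in C. frutescens leaf 5 of 204 miR160 reads stood under such a sequence. Short printed sequences were not particular to the members, since 904 of 904 reads of miR164, a family tied to organ boundaries, had one in C. frutescens fruit. The low share of miR167 came from bna-miR167b, whose printed sequence was 25 nt in 6 of the 7 libraries that list it, with 4 more bases at the 3′ end (capitals).
miR167 (bna-miR167b, C. chinense stem): ugaagcugccagcaugaucuaAACU
In C. chinense flower the same entry was printed with 21 nt. ppt-miR160e was printed with 1 to 3 extra bases at the 5′ end in 5 libraries, and ppt-miR390b with 1 extra base at the 3′ end in both stem libraries and with none elsewhere. How many reads had each length cannot be read from 1 printed sequence per entry.

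Depth and composition differ between the libraries and bear on every share below. The listed conserved reads numbered 246508 in C. frutescens leaf at the lowest and 1412110 in C. chinense stem at the highest. miR165 and miR166, which target leaf polarity genes, took 63.7% of them in the leaf of C. chinense and 89.2% to 93.9% in its other organs. In C. frutescens they took from 42.5% in flower to 76.6% in stem. Shares are therefore given of all listed conserved reads and of those left without miR165 and miR166. The remainder is also uneven: miR482 was its largest family in 6 libraries, whereas miR3711 held 43.0% of it in C. frutescens flower and miR6300 39.1% in C. chinense leaf. The part of these families in the shares of the members was not tested. Together the members held from 0.0470% of all listed reads in C. chinense flower to 0.261% in C. chinense stem. Reads carry no molecular identifiers, so the 95% intervals (exact Clopper-Pearson) cover counting error only.

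miR160 was the most read of the 3 families in 7 of the 8 libraries. In C. frutescens fruit this rests on names of the 3p arm, without which miR390 had more reads, 697 against 654. In C. chinense miR160 had 1683 reads in stem, 303 in flower, 671 in fruit and 407 in leaf. The same organs of C. frutescens had 720, 742, 1103 and 204. Of all listed reads these are, in that order of organs, 0.119%, 0.0281%, 0.109% and 0.0501% for C. chinense. For C. frutescens they are 0.0636%, 0.180%, 0.118% and 0.0828%. By this share C. frutescens flower stood highest (95% interval 0.167 to 0.193) and C. chinense flower lowest (0.0250 to 0.0314), so the 2 flower libraries held both ends of the order. Without miR165 and miR166 the shares were 1.10%, 0.460%, 1.16% and 0.138% in C. chinense. In C. frutescens they were 0.271%, 0.313%, 0.298% and 0.250%. On that scale fruit and stem of C. chinense led, with intervals that met each other, and C. chinense leaf was lowest. The 4 organs of C. frutescens lay within 1.25-fold of each other, each interval meeting that of the next in order, against 8.44-fold from lowest to highest in C. chinense. Without names of the 3p arm, C. frutescens fruit stood at 0.177% and flower at 0.312%, and the range of C. frutescens was 1.77-fold.

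By its share of listed reads, miR167 was lowest in flower in both species. C. chinense had 398 reads in stem, 42 in flower, 70 in fruit and 236 in leaf, and C. frutescens 315, 19, 282 and 67. Of all listed reads this is 0.0282%, 0.00389%, 0.0114% and 0.0291% for C. chinense and 0.0278%, 0.00460%, 0.0301% and 0.0272% for C. frutescens. Both stems, both leaves and C. frutescens fruit held nearly equal shares, each interval meeting the next in the order, and both flower libraries lay at the bottom with intervals that met. Without miR165 and miR166 C. chinense had shares of 0.260%, 0.0638%, 0.121% and 0.0800%, and C. frutescens of 0.119%, 0.00801%, 0.0762% and 0.0820%. C. chinense stem then stood apart at the top (95% interval 0.235 to 0.287) and C. frutescens flower at the bottom (0.00482 to 0.0125). On this scale the interval of C. chinense flower met those of its own leaf and of C. frutescens fruit. Among entries printed with at most 24 nt, which leave out bna-miR167b in most libraries, the order turned: miR167 held 0.200% in C. chinense flower, 0.174% in its stem and 0.0330% in its fruit.

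miR390 was highest in stem, except by its share of all listed reads in C. frutescens. C. chinense had 1602 reads in stem, 162 in flower, 166 in fruit and 170 in leaf, and C. frutescens 824, 51, 778 and 77. Of all listed reads it took 0.113%, 0.0150%, 0.0271% and 0.0209% for C. chinense and 0.0727%, 0.0124%, 0.0830% and 0.0312% for C. frutescens. By this share stem led in C. chinense, while in C. frutescens fruit and stem led with intervals that met. Without miR165 and miR166 C. chinense had shares of 1.05%, 0.246%, 0.288% and 0.0576%, and C. frutescens of 0.310%, 0.0215%, 0.210% and 0.0942%. Stem was then the highest organ of both species, and C. chinense stem lay above all others (95% interval 0.996 to 1.10). C. frutescens flower held the lowest share of miR390 on both scales, with an interval that met that of C. chinense flower when all listed reads were the total.

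**Figure D1:**
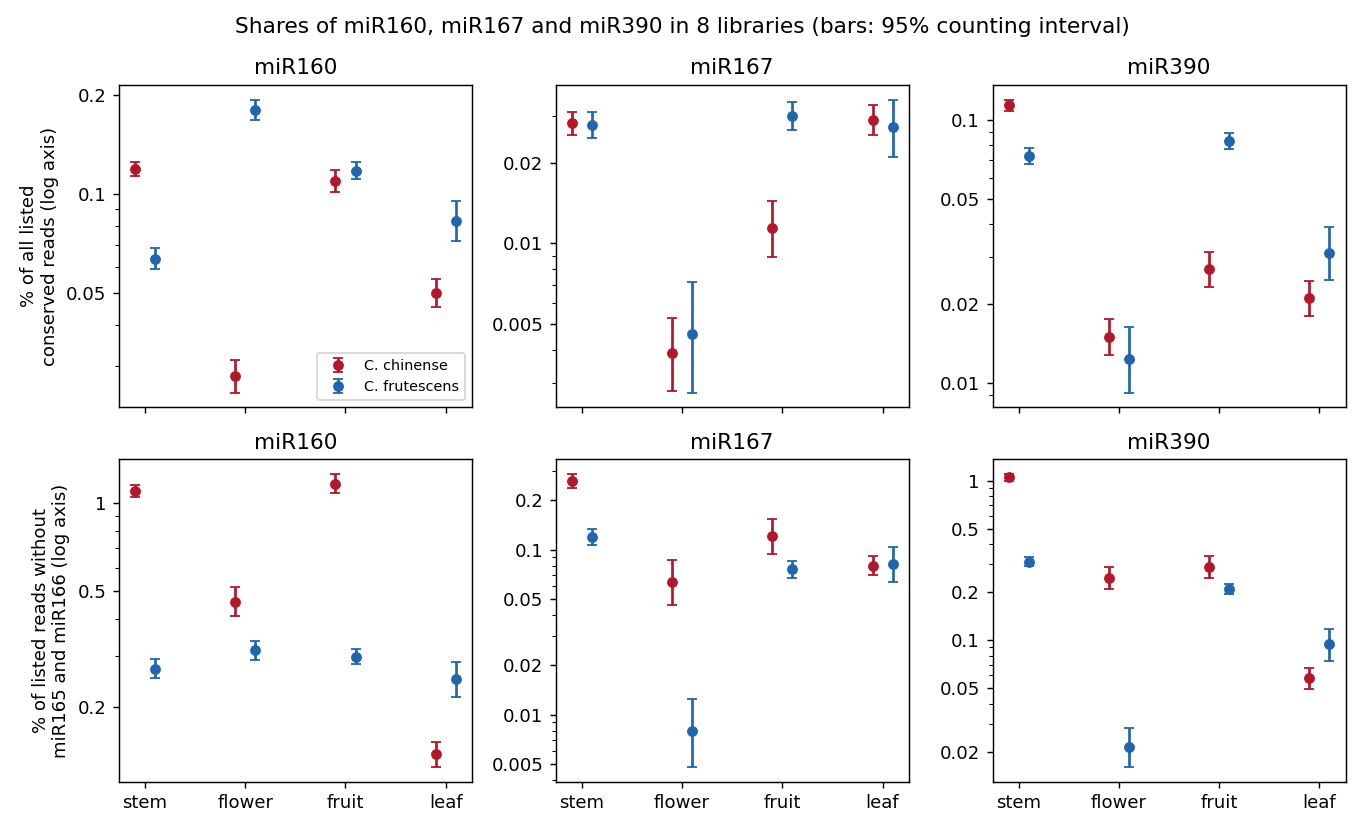
Share of miR160, miR167 and miR390 in each of the 8 libraries on log axes, as percent of all listed conserved reads (top) and of the listed reads without miR165 and miR166 (bottom), with 95% counting intervals and 1 library per point. miR167 is lowest in flower in both species, and miR390 without miR165 and miR166 is highest in stem in both.

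Ratios between the families within a library do not depend on its total. In stem miR160 and miR390 had nearly equal reads, with 1.05 miR160 reads per miR390 read in C. chinense (95% counting interval 0.981 to 1.13) and 0.874 in C. frutescens (0.790 to 0.967). In every other library miR160 exceeded miR390, from 1.42-fold in C. frutescens fruit (1.29 to 1.56) to 14.5-fold in C. frutescens flower (10.9 to 19.7). Without names of the 3p arm the order turned in C. frutescens fruit, to 654 miR160 reads against 697 of miR390. C. chinense flower had 1.87 miR160 reads per miR390 read (1.54 to 2.28), so the flower libraries differed most in this balance. Against miR167, miR160 was from 1.72-fold in C. chinense leaf (1.47 to 2.03) to 39.1-fold in C. frutescens flower (24.8 to 65.2). miR390 exceeded miR167 in 7 of 8 libraries, the exception being C. chinense leaf with 170 against 236 reads. In C. frutescens leaf, among the 7, the ratio was 1.15 with an interval that met 1 (0.818 to 1.62).

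The 2 species were compared organ by organ, 1 library against 1, as ratios of shares without a test. The direction turned with the choice of total in 6 of the 12 ratios of the 3 families and 4 organs. With all listed reads as the total 7 of 12 were higher in C. frutescens, and without miR165 and miR166 it was 3 of 12. Within an organ the change of total moves the 3 families by the same factor. In flower miR160 was 6.41-fold higher in C. frutescens of all listed reads (95% counting interval 5.60 to 7.35), and 1.47-fold higher in C. chinense without miR165 and miR166 (1.28 to 1.68). miR390 and miR167 in flower, whose intervals met 1 with all listed reads, were 11.4-fold (8.30 to 16.0) and 7.96-fold (4.53 to 14.5) higher in C. chinense without miR165 and miR166. In fruit miR390 went from 3.07-fold higher in C. frutescens (2.59 to 3.65) to 1.37-fold higher in C. chinense (1.15 to 1.62), and miR167 from 2.64-fold higher in C. frutescens (2.02 to 3.48) to 1.59-fold higher in C. chinense (1.21 to 2.08).

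In 4 ratios both totals gave the same direction with intervals clear of 1, all of them for miR160 or miR390 in stem or leaf. In stem miR160 was higher in C. chinense, 1.88-fold of all listed reads (1.72 to 2.05) and 4.05-fold without miR165 and miR166 (3.71 to 4.43). miR390 in stem was likewise higher in C. chinense, 1.56-fold (1.43 to 1.70) and 3.37-fold (3.10 to 3.67). In leaf both were higher in C. frutescens, miR160 by 1.65-fold (1.39 to 1.96) and 1.81-fold (1.52 to 2.15). miR390 in leaf stood at 1.49-fold (1.12 to 1.96) and 1.63-fold (1.23 to 2.15). In leaf the change of total moves the ratios little, with miR165 and miR166 at 63.7% in C. chinense and 66.8% in C. frutescens. Among entries printed with at most 24 nt both leaf directions turned. There miR160 held 1.97% in C. chinense leaf against 0.0135% (5 reads) in C. frutescens leaf, and miR390 0.822% against 0.207%. On that scale both families stayed higher in C. chinense in stem. The leaf ratio of miR167 met 1 on both scales, at 0.935 (0.702 to 1.23) and 1.02 (0.769 to 1.35).

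**Figure D2:**
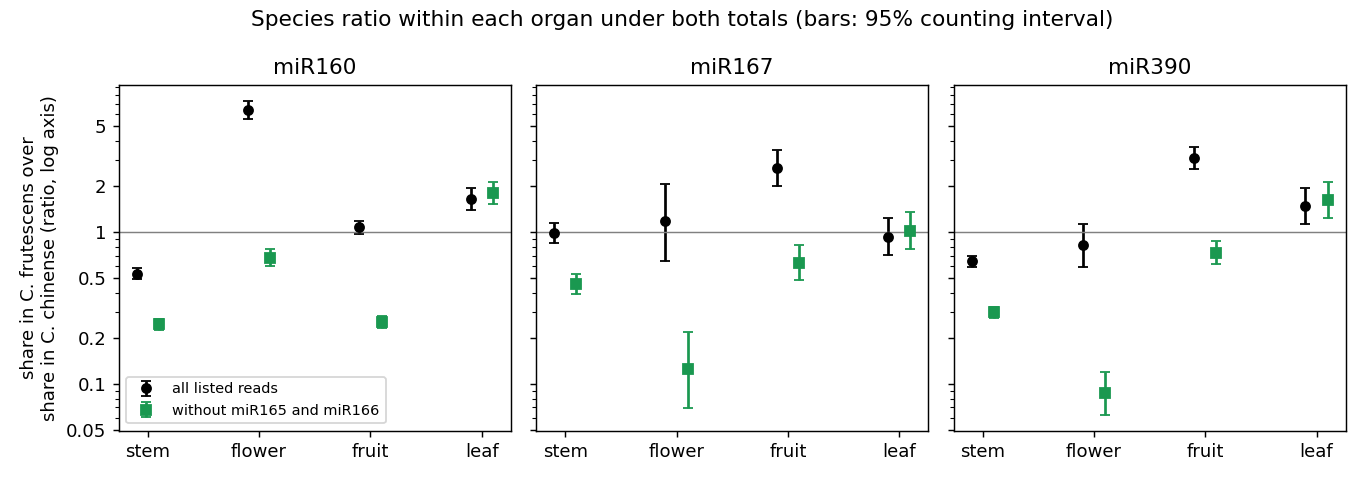
Share in C. frutescens over share in C. chinense for each family and organ on a log axis, with all listed reads as the total (black circles) and without miR165 and miR166 (green squares), with 95% counting intervals and 1 library per species and organ. The flower ratio of miR160 falls from 6.41 to 0.680 when miR165 and miR166 leave the total, while the leaf ratios barely move.

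The forms of miR390 were divided unevenly between libraries. The entry gma-miR390b-5p carries G19A relative to ppt-miR390b, and its share of the reads of both entries is free of the library total. In stem it took 9.63% of them in C. chinense (152 against 1426 reads, 95% interval 8.22 to 11.2) and 9.43% in C. frutescens (71 against 682 reads, 7.44 to 11.7). The stems of both species were thus alike in this share and at the low end. In C. chinense the share was 45.7% in flower (69 against 82 reads), 11.3% in fruit (17 against 134) and 34.3% in leaf (48 against 92). In C. frutescens it was 70.7% in flower (29 against 12 reads), 77.8% in fruit (542 against 155) and 55.7% in leaf (34 against 27). Flower and leaf lay above stem in both species with intervals clear of it, and fruit was near stem in C. chinense (6.70 to 17.4) but far above it in C. frutescens (74.5 to 80.8), where the wider interval of flower (54.5 to 83.9) held that of fruit. Over the 4 organs the mean was 25.2% in C. chinense and 53.4% in C. frutescens, and C. frutescens was higher in 3 of 4 organs (exact two-sided permutation of species within organs, p = 0.25, adjusted p = 0.375 over 3 such shares by Benjamini-Hochberg). The design cannot give a p below 0.125. The miR390 reads of stem and fruit in C. frutescens, 824 and 778 from libraries of unlike depth, thus held the same 2 main entries in different proportions.

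The entry ath-miR167d, which carries A21G and 1 more base relative to bna-miR167b, had 108 reads in C. chinense leaf and 29 in C. frutescens leaf. Of the reads of both entries this was 66.3% in C. chinense leaf (95% interval 58.4 to 73.5) and 46.8% in C. frutescens leaf (34.0 to 59.9). In stem it was 0.802% in C. chinense (0.166 to 2.33) and 7.82% in C. frutescens (5.02 to 11.5). In fruit the entry was not listed in C. chinense, where 0 of 64 reads allows up to 5.60%, and took 3.13% in C. frutescens (1.36 to 6.06). Both leaves thus lay above the stem and fruit of both species with intervals that did not meet. Flower had 1 read of this entry in each species against 9 and 0 of bna-miR167b. Another entry with A21G, cpa-miR167d, named after its values were seen, had 9 reads in C. chinense flower and 2 in C. frutescens flower. Over all entries that match the 5p arm, sequences with A21G held 10 of 22 reads in C. chinense flower and 3 of 3 in C. frutescens flower, so the change was not particular to leaf. The mean over organs was 19.3% in C. chinense and 39.4% in C. frutescens, the latter with a flower value that rests on 1 read (exact permutation p = 0.625, adjusted p = 0.625).

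Reads under names of the 3p arm were few in miR160 except in 1 library, although 9 of its 13 entries have such names. In C. frutescens fruit gma-miR160a-3p had 441 reads beside 648 of ppt-miR160e. In the other libraries it had 20 reads in the stem of C. frutescens, 11 in that of C. chinense and 1 in each of the rest. Its share of the reads of both entries was 40.5% in C. frutescens fruit (95% interval 37.6 to 43.5), 2.82% in C. frutescens stem and at most 0.656% in the other 6 libraries. The large miR160 count of C. frutescens fruit, 1103 reads, therefore included 449 reads under 3p names, 40.7% of it. This library also listed 1623 entries, more than any other, against 426 to 851 elsewhere. Over organs the share was higher in C. frutescens in 3 of 4 (exact permutation p = 0.25, adjusted p = 0.375). Leaf, 1 of these, rests on 1 read of gma-miR160a-3p in each species.

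In miR167 the 3p names weighed most where the family was lowest. They held 20 of the 42 reads in C. chinense flower (47.6%, 95% interval 32.0 to 63.6) and 16 of the 19 in C. frutescens flower (84.2%, 60.4 to 96.6). In stem and fruit of both species and in C. frutescens leaf they held from 2.51% to 7.46%, and in C. chinense leaf 28.4%. Summed over the libraries, most reads under 3p names were of stu-miR167c-3p, with 54 reads in C. chinense leaf and 12 in C. frutescens flower. It was a minority of them elsewhere, with 9 of 20 in C. chinense flower. The stem and fruit libraries and C. frutescens leaf had from 1 to 6 reads of it. The 5p and unmarked names of miR167 thus had 22 reads in C. chinense flower and 3 in C. frutescens flower. For miR390 the 3p names held from 1.06% in C. chinense stem to 12.4% in C. chinense leaf.

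Names were not a full guide to the arm in miR390, and in miR167 the match by sequence left part of the 3p names unplaced. In miR167, 70 reads under 3p names did not match stu-miR167c-3p, the most-read 3p sequence, within 3 mismatches over at least 15 nt, against 90 that did. The 70 did not match the 5p arm either. With 1 reference sequence per arm, the match cannot say which arm they came from. Reads that matched stu-miR167c-3p were 9 of 42 in C. chinense flower and 12 of 19 in C. frutescens flower, which leaves out any 3p form unlike it. The entry pta-miR390, named for no arm, was printed with a 3p sequence in 4 libraries, with 40 reads in C. frutescens stem. In C. chinense stem and flower the same entry was printed with the reverse complement of the 3p arm, with 6 and 5 reads. Both are shown for the stems, followed by the reverse complement of the latter, because 1 name covers a 3p sequence and its reverse complement. The sequences of C. chinense stem and flower also lay within the limit of the 5p form ppt-miR390b. Each sequence was placed by its closest match, and its origin was not tested.
miR390 (pta-miR390, C. frutescens stem): uuggcgcuauccauccugagu
miR390 (pta-miR390, C. chinense stem): uagaacucaggauggauagcgcc
Reverse complement of the latter: ggcgcuauccauccugaguucua
ath-miR390b-3p was also printed as a reverse complement in C. frutescens fruit, with 32 reads, and this sequence too lay within the limit of ppt-miR390b. By closest match within the same limit, 93.4% of the miR390 reads were of the 5p arm, 5.43% of the 3p arm and 1.12% of its reverse complement. For miR160 the 5p arm held 91.5% and for miR167 88.7%. None of the 3386 listings in the sheets of predicted miRNAs matched the reference sequence of either arm of a member on either strand at this limit. With 1 reference per arm and family, forms unlike it would be missed.

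**Figure D3:**
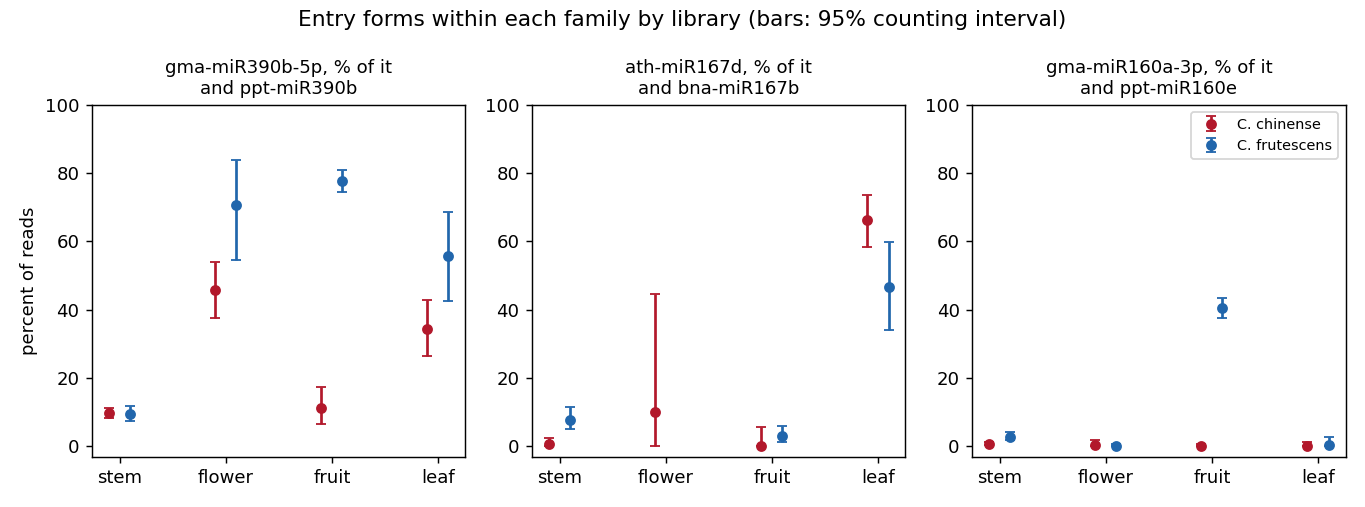
Share of gma-miR390b-5p beside ppt-miR390b, of ath-miR167d beside bna-miR167b and of gma-miR160a-3p beside ppt-miR160e, in percent of the reads of both entries, by organ and species with 95% counting intervals and 1 library per point (C. frutescens flower is left out for miR167, with 1 read). Both stems are near 9% for miR390, both leaves are highest for miR167, and C. frutescens fruit stands alone for miR160 at 40.5%.

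The libraries were also compared in 1 model of all families, with organ and species as additive terms, using the quasi-likelihood test of edgeR on family sums with TMM scaling. All 3 members were among the 71 families that had 10 or more reads in 2 or more libraries, the limit for entering the test. The error of this test is the variation of the species difference over organs, with 3 residual degrees of freedom. Between the species 1 of 71 families passed, 1.41% of those tested, and 0 of the 3 members (edgeR, Benjamini-Hochberg adjusted p from 0.861 to 0.980). The log2 fold change of C. frutescens over C. chinense was -0.27 (SE 1.20) for miR160, -0.42 (SE 0.734) for miR167 and -0.47 (SE 0.867) for miR390, with a median over all families of 0.20. All 3 signs turned with total reads in place of TMM, to 0.61, 0.37 and 0.31, where the median of all families was 0.90. Without the C. chinense stem library they also turned, to 0.86, 0.22 and 0.34. At an unadjusted p under 0.05 there were 8 families, and the test of DESeq2 called 13.

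By organ, each was set against the mean of the other 3. In stem all 3 members had positive log2 values, 2.36 (SE 0.918) for miR390, 1.55 (SE 0.783) for miR167 and 0.50 (SE 1.23) for miR160, where the median of all families was -0.03. None passed (edgeR, Benjamini-Hochberg adjusted p = 0.528, 0.623 and 0.869), nor did any of the 71 families, so that 0% were called, with 5 at an unadjusted p under 0.05. miR390 had the second lowest p of the 71. DESeq2 called 5 families in stem, miR390 (log2 2.30, adjusted p = 0.00182) and miR167 (log2 1.53, adjusted p = 0.00674) among them. Over 15 alternatives the adjusted p ran from 0.00182 to 1 for miR390 and from 0.00674 to 1 for miR167. Without the C. chinense stem library the edgeR value of miR390 was 1.19 and that of miR167 0.85.

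In flower miR167 stood at -1.55 (SE 0.933), miR390 at -0.91 (SE 1.03) and miR160 at 1.19 (SE 1.30), with a median of all families of 0.23. 0% of the 71 families passed in edgeR, with 6 at an unadjusted p under 0.05, and the members had adjusted p of 0.560, 0.709 and 0.709. DESeq2 called 11 families in flower and miR167 among them (log2 -1.94, adjusted p = 0.000447, range over 15 alternatives 0.000447 to 1). Without entries named for the 3p arm miR167 was at -3.17 in flower in edgeR, and with printed sequences of at most 24 nt it turned to 0.65. The miR160 value turned to -1.25 without the C. frutescens flower library, and to -0.0036 with total reads, where the median of all families was -0.64.

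In fruit the members lay near 0, at 0.12 (SE 1.23) for miR160, -0.04 (SE 0.843) for miR167 and 0.22 (SE 0.963) for miR390, with a median of all families of 0.03. In leaf miR160 stood at -1.82 (SE 1.34), miR390 at -1.67 (SE 1.09) and miR167 at 0.05 (SE 0.828), with a median of all families of -0.64. 0% of the 71 families passed in either organ in edgeR, with 13 and 12 at an unadjusted p under 0.05, and the lowest adjusted p of a member was 0.493, for miR160 and miR390 in leaf. DESeq2 called 15 and 14 families in fruit and leaf, none of them a member.

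**Figure D4:**
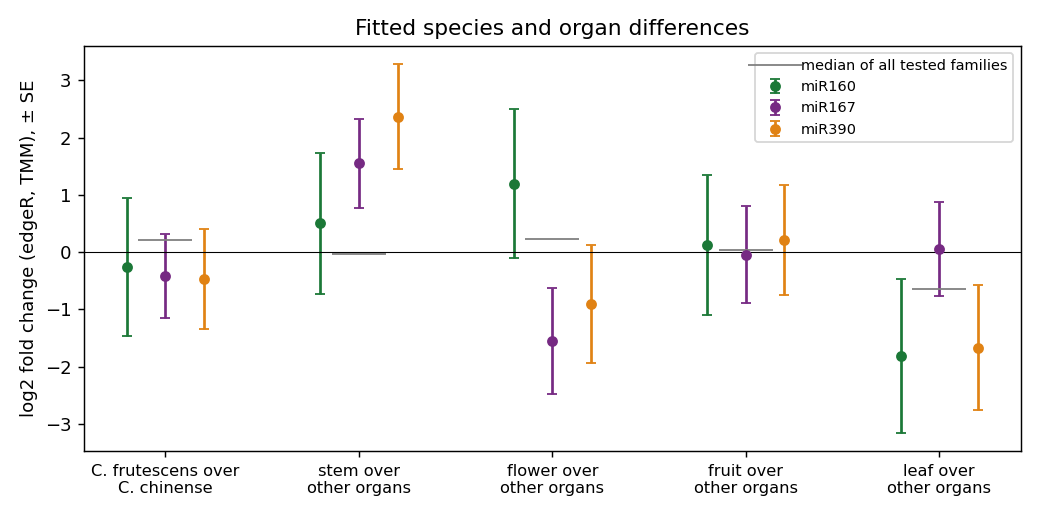
Fitted log2 fold change with its SE (edgeR, TMM, 8 libraries) of miR160, miR167 and miR390 for C. frutescens over C. chinense and for each organ over the other 3; grey marks are the median of all 71 tested families. miR390 and miR167 lie highest in stem, at 2.36 and 1.55, and none of the 15 values passed the threshold.

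Of the other families tied to auxin, miR393, which targets the TIR1/AFB auxin receptors, had 42, 10, 96 and 28 reads in the 4 organs of C. chinense, in the order used above, and 38, 14, 8696 and 27 in those of C. frutescens. miR164, which targets NAC genes of lateral roots and organ boundaries, had 61, 103, 111 and 38 reads in C. chinense, against 124, 130, 904 and 12 for C. frutescens. miR847, known in Arabidopsis to target IAA28, had 0 to 3 reads in each library and was not tested. Of miR393 and miR164, 0 of 2 passed between the species or in any organ in edgeR. Both had most reads in C. frutescens fruit, and both had negative values in stem, -1.13 (SE 1.34) and -0.78 (SE 0.915), where miR390 and miR167 had positive ones. In flower miR164 stood at 1.66 (SE 0.830) against -1.55 for miR167.

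The tested families most like each member were found by the root mean square difference of centred log2 shares without miR165 and miR166 over the 8 libraries. For miR390 these were miR172, which targets AP2-like genes, at 0.63, miR167 at 0.80 and miR171, which targets GRAS genes, at 0.88, with a median of 1.87 over 68 families. For miR167 they were the copper-responsive miR408 at 0.69, miR171 at 0.77 and miR390 at 0.80, with a median of 1.90. For miR160 they were miR482, which targets NBS-LRR resistance genes, at 0.67, miR395, which targets genes of sulfate use, at 0.74 and miR472 at 0.78, with a median of 1.71. miR172, miR395 and miR472 rest on few reads, from 4 to 67, from 1 to 15 and from 2 to 33 per library. miR167 and miR390 were thus among each other's 3 nearest, while miR160 was the 11th nearest to miR390 and the 19th nearest to miR167. These are descriptions over 8 libraries that share their totals.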

How the data were processed

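The authors deposited raw read counts per miRNA entry, in 1 sheet per library for conserved entries and 1 for predicted ones, per the file headers. Per the labels' protocols, total RNA (NucleoSpin) went into TruSeq small RNA libraries, sequenced on a Genome Analyser II from Illumina. The sources used here do not give trimming, aligner, miRNA database or allowed mismatches (not stated). Sheets were matched to samples by sheet name. The conserved sheets of C. chinense stem and leaf each had a line emptied in the copies used here.

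Reads were summed per miR number, and an entry not listed counted as 0 (Python 3.11.15, pandas 2.3.3, numpy 2.4.6). Shares and ratios have exact 95% counting intervals (scipy 1.17.1). Sums were fitted with edgeR 4.0.16 in R 4.3.3 (TMM, organ plus species, at least 10 reads in at least 2 libraries, Benjamini-Hochberg within a contrast, threshold 0.05). SEs come from the F statistics. The test adds 7.10 prior degrees of freedom. DESeq2 1.42.0 was an alternative. The fit was run on simulated counts for the species difference only, with the spread estimated from these libraries. The organ contrasts were not simulated, and no support is drawn from that run. Likeness used a pseudocount of 0.5 reads. Entries named are the 3 most read of a family or those over 50% of it in a library; others, such as pta-miR390, were named after their values were seen. Members and lists were chosen with earlier results of these data known.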

Additional observations from a re-analysis of the deposited data

Results flagged for a closer look

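miR160 pointed opposite ways in the 2 species in stem and in flower, with miR165 and miR166 in the total or without them. Without them its log2 share in stem was 1.39 above the mean of the other 3 organs in C. chinense and at -0.074 in C. frutescens. In flower it was at -0.29 in C. chinense and 0.20 in C. frutescens. The difference was not tested, since each value rests on 1 library per organ. The values of C. frutescens are small, and its 4 organs lay within 1.25-fold of each other. Without names of the 3p arm, which hold 449 reads of C. frutescens fruit, the stem value of C. frutescens turned to 0.14 and pointed the same way as C. chinense (1.39). The flower values stayed opposite, at -0.28 in C. chinense and 0.47 in C. frutescens.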

How the results depend on the processing

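Of the 15 fitted differences of miR160, miR167 and miR390, tried under 7 settings each, 91 of 105 values kept sign and side of the threshold, 11 turned sign and 3 became calls, all with the test of DESeq2 (miR167 in stem 1.53 and in flower -1.94, miR390 in stem 2.30). With total reads the species values turned to 0.61, 0.37 and 0.31, miR160 in flower to -0.0036 and miR167 in fruit to 0.39. Without miR165 and miR166 miR167 in fruit was 0.0064, without 3p names 0.60, and miR160 in flower was -0.081 with no filter. With printed sequences of at most 24 nt, which leave out most bna-miR167b reads, miR167 was -0.67 in stem and 0.65 in flower, and miR390 in fruit -0.35. Leaving out 1 library at a time gave no call of a member and 17 turned signs in 120 fits. The ranges for miR160, miR167 and miR390 were -1.57 to 0.86, -1.12 to 0.22 and -1.26 to 0.34 between species. They were -1.04 to 1.34, 0.85 to 1.71 and 1.19 to 2.72 in stem, and -1.25 to 2.08, -1.98 to -1.37 and -1.36 to -0.48 in flower. They were -0.82 to 0.85, -0.82 to 0.21 and -0.78 to 0.61 in fruit, and -2.22 to -0.77, 0.04 to 0.60 and -2.05 to -1.01 in leaf. Families called between species, in stem, flower, fruit and leaf numbered 13, 5, 11, 15 and 14 with DESeq2, 3, 1, 0, 1 and 2 with no filter, and 3, 1, 0, 0 and 1 without 3p names. They were 1, 0, 0, 1 and 6 with total reads and 0 between species at 24 nt or less. With 1 library left out they ran from 0 to 4, 0 to 1, 0 to 4, 0 to 6 and 0 to 9. Mean shares over the 8 libraries of 0.0938%, 0.0203% and 0.0470% for miR160, miR167 and miR390 became 0.499%, 0.101% and 0.284% without miR165 and miR166, and 3.41%, 0.213% and 2.28% among entries of at most 24 nt. Where not said, the cause was not tested. Depth limits miR167 most, with 19 reads in C. frutescens flower. Organ pairs the species in the model, and the labels number no replicates that could form a further block.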
